A study of Mus musculus with 9 samples.

Results

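Synaptotagmins, complexins and Doc2b are the calcium sensors and fusion regulators of regulated exocytosis, and their RNA was compared between the 2 genotypes of mouse pancreatic islets. The genes examined were Syt3, Syt4, Syt5, Syt7, Syt9, Syt11, Syt13, Cplx1, Cplx2 and Doc2b, taken by their symbols from the tables of counts and of FPKM. All 10 were found among the 24420 genes counted. The tested islets, called KO here, carried Rip-cre and were Ogt f/f in 4 libraries, KO 1 and KO 2 from run 1 and KO 3 and KO 4 from run 3. The control islets, called WT here, carried no Cre. WT 1 and WT 3 were Ogt f/+ and WT 2 was Ogt f/f, all from run 1, and WT 4 and WT 5 were Ogt f/f from run 3. All animals were female, and their ages are not given in the labels. Rip-cre is driven by the rat insulin promoter, which acts in beta cells, so the other cells of an islet keep Ogt. Ogt encodes the sole enzyme that attaches O-linked N-acetylglucosamine sugars to nuclear and cytoplasmic proteins. No library carried Rip-cre with intact Ogt, so effects of the Cre and of the Ogt deletion cannot be told apart. Islets were hand-picked and cultured overnight before RNA extraction, and each library is 1 sample. Whether a sample pooled animals is not given in the labels, so p-values measure the spread between these samples.

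In a secretory cell, granules fuse with the plasma membrane when SNARE proteins on the 2 membranes zip together. Synaptotagmins sit in the granule or plasma membrane and carry a pair of C2 domains, which in the calcium-binding members attach to phospholipids and SNAREs once calcium channels open. Complexins are small proteins that bind assembled SNARE complexes and both restrain and prime fusion. Doc2b is a soluble C2-domain protein that binds calcium with high affinity and interacts with syntaxin proteins. In mouse islets, Syt7 is known as a main calcium sensor of insulin secretion, and Syt4 as a protein that lowers the calcium sensitivity of secretion as beta cells mature.

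Of the 9 genes that had enough counts to be tested, 4 were higher in KO islets (Syt5, Syt7, Syt11 and Cplx2), 1 was lower (Syt4) and 4 were not called (Syt3, Syt9, Syt13 and Doc2b). Calls are adjusted p-values below 0.05 from edgeR's quasi-likelihood test with run as a term, Benjamini-Hochberg adjusted over the 12501 genes tested. Over all tested genes 18.5% were called, 9.56% as higher in KO and 8.96% as lower. The median log2 fold change was 0.11 over the 9 genes and 0.017 over all tested genes. Cplx1 had too few counts to be tested. The plot of all 9 fold changes gives each with its SE, beside the values within each run.

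**Figure D1:**
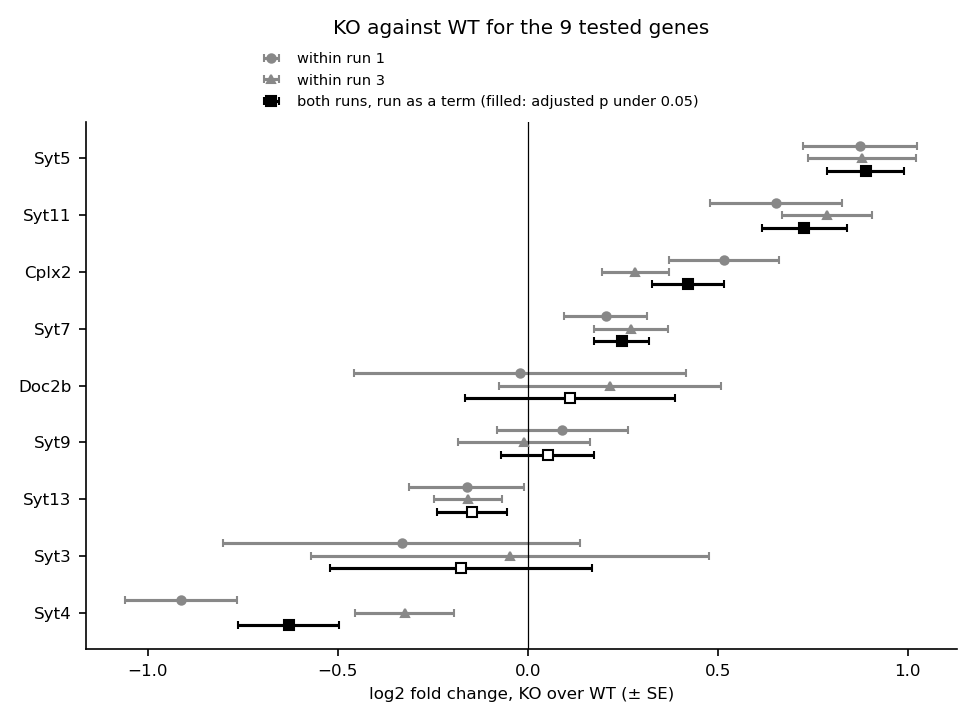
Log2 fold change (KO minus WT) ± SE for the 9 tested genes. Squares give the fit with run as a term over 4 KO and 5 WT libraries, filled for called genes. Gray circles give run 1 alone and gray triangles run 3 alone. Among the squares Syt5, at 0.89, lies farthest to the right and Syt4, at -0.63, farthest to the left. The squares of Syt3, Syt9, Syt13 and Doc2b are open.

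The deletion and the tissue were checked first. Ogt was at 29.5 ± 7.34 CPM in KO islets and at 71.1 ± 11.9 CPM in WT islets (SD, n = 4 and 5; CPM are counts scaled to a common library size by TMM), a log2 fold change of -1.30 ± 0.14 (SE, adjusted p = 2.44e-05 by edgeR). Library totals ran between 3796043 and 4462754 counts in run 1 and between 5150443 and 6073537 counts in run 3. Between 14485 and 15136 genes had a count in a library of run 1, and between 20069 and 21067 in a library of run 3. The 10 genes took between 0.251% and 0.271% of the counts in KO libraries and between 0.181% and 0.233% in WT libraries. Rn45s, the precursor of ribosomal RNA, made up 11.9% to 19.4% of a KO library and 9.62% to 28.5% of a WT library, with the largest part in WT 2. Beta-cell markers summed to between 42850 and 83070 CPM in KO libraries and between 47900 and 110200 CPM in WT libraries. The glucagon gene Gcg averaged 35740 CPM in KO islets and 29980 CPM in WT islets, so both main endocrine hormones of an islet were abundant.

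Levels between genes were compared per length, in the authors' FPKM. Cplx2 had the highest level, at 235 ± 18.1 FPKM in KO islets and 177 ± 21.0 FPKM in WT islets (SD, n = 4 and 5). Syt13 followed at 122 ± 9.25 FPKM in KO islets and 136 ± 17.5 FPKM in WT islets. Syt7 was next, at 68.0 ± 2.17 FPKM in KO islets and 59.6 ± 4.25 FPKM in WT islets. Below these genes the order differed between the genotypes, with Syt5 (39.9 FPKM) above Syt4 (33.6 FPKM) in KO islets, whereas Syt4 (56.0 FPKM) stood above Syt5 (21.8 FPKM) in WT islets. Syt11 averaged 24.1 FPKM in KO islets and 14.6 FPKM in WT islets. Syt9 was at 9.22 FPKM in KO islets and 8.87 FPKM in WT islets, and Doc2b at 2.28 FPKM in KO islets and 2.11 FPKM in WT islets. The lowest levels were those of Syt3 (0.956 FPKM in KO islets, 1.29 FPKM in WT islets) and Cplx1 (0.725 FPKM in KO islets, 0.533 FPKM in WT islets). Neighbours in the order were set against the SD of their log2 difference over the libraries of a genotype. Syt5 and Syt4, and Syt3 and Cplx1, did not differ beyond that spread in KO islets, and Syt7 and Syt4, and Doc2b and Syt3, did not in WT islets.

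**Figure D2:**
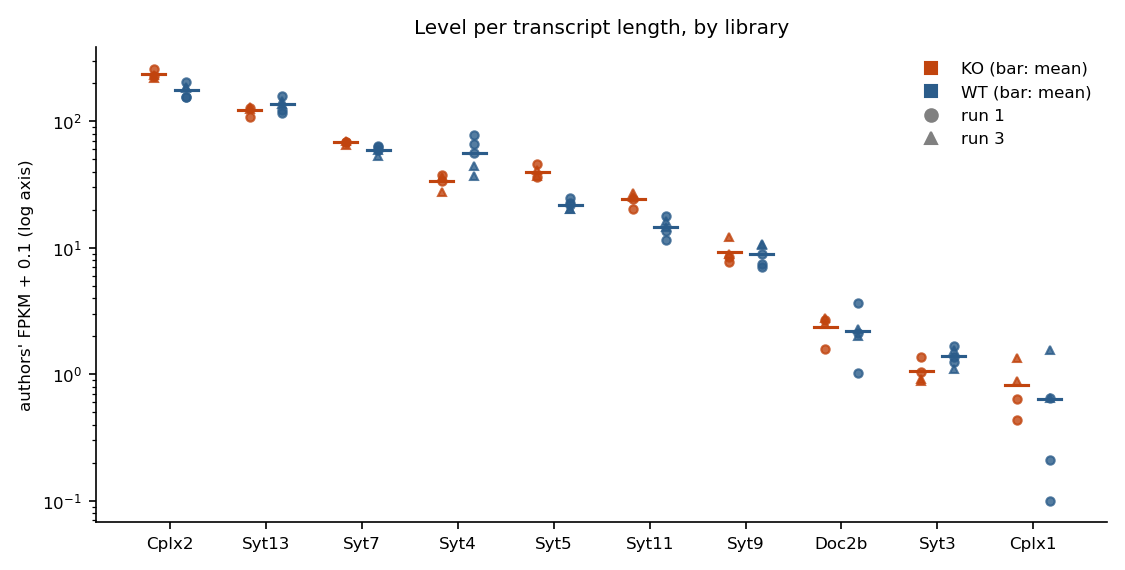
The authors' FPKM plus 0.1 for the 10 genes on a log axis, 1 point per library with a bar at the mean, KO left of WT. Means run from 235 FPKM (KO) and 177 FPKM (WT) for Cplx2 down to 0.725 FPKM (KO) and 0.533 FPKM (WT) for Cplx1.

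Sequence is shown for the 2 genes that rose in KO islets and have a promoter entry in the RefSeq table for GRCm38.p6. Entries were matched for 5 of the 10 genes (Syt3, Syt9, Syt11, Cplx1 and Cplx2). Whether the table holds entries for the other genes is not reported here. The RefSeq start of Syt11 lies 2565 bases inside the gene as GENCODE annotates it, and the 250 bases before that start are chr3:88772600-88772849 on the minus strand. The RefSeq start of Cplx2 lies 68793 bases upstream of the GENCODE start, and the 250 bases before it are chr13:54302306-54302555 on the plus strand. Both are written 5′ to 3′, and capitals mark matches to the GC box GGGCGG or its complement CCGCCC.
Syt11: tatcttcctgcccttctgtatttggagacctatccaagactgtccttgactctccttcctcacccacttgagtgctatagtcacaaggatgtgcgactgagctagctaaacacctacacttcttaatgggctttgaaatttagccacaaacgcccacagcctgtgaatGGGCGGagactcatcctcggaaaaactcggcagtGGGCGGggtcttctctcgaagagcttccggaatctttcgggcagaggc
Cplx2: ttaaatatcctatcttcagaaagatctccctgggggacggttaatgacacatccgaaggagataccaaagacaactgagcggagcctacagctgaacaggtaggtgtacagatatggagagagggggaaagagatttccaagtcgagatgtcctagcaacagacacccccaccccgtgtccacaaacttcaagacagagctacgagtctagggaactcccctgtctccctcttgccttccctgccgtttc
The Syt11 stretch held 2 GC boxes and the Cplx2 stretch held none. Of the 32536 stretches of the same length that were searched, 33.0% held at least 1. Neither stretch held the E-box CACGTG on either strand, which 6.04% of all stretches held. TGACG, the core of the cyclic AMP response element, was also missing from both, and 17.9% of all stretches held it. Nor was there a CCAAT box, spelled CCAAT and held by 33.8% of all stretches, or a TATA box, searched as TATAAA and held by 12.3%. Their GC content was 51.2% for Syt11 and 50.8% for Cplx2, against a median of 52.4% over all stretches.

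Among the synaptotagmins that bind calcium, Syt5 and Syt7 were higher in KO islets, and Syt3 and Syt9 were not called. Syt5, a calcium sensor of dense-core granules whose name was exchanged with that of Syt9 in part of the older literature, had the lowest p-value of the 10 genes. Syt5 was at 88.4, 67.7, 68.5 and 59.4 CPM in KO 1 to KO 4, against 40.6, 40.8, 44.8, 34.9 and 34.1 CPM in WT 1 to WT 5. The lowest KO library lay above the highest WT library. Its mean was 71.0 ± 12.3 CPM in KO islets and 39.0 ± 4.44 CPM in WT islets (SD, n = 4 and 5), a log2 fold change of 0.89 ± 0.10 (SE, 95% interval 0.67 to 1.10, adjusted p = 3.5e-05 by edgeR). An exact two-sided permutation of the labels within runs gave p = 0.0167, the smallest its 60 arrangements can give. The difference was 0.88 within run 1 and 0.88 within run 3, and the call held in all alternatives run.

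Syt7, the high-affinity sensor with a known part in insulin and glucagon secretion, had the highest level per length of these 4 synaptotagmins. It was at 572, 561, 440 and 476 CPM in KO 1 to KO 4, against 498, 504, 458, 353 and 403 CPM in WT 1 to WT 5. All KO libraries lay above all WT libraries of their own run, but KO 3 and KO 4 lay within or below the WT values of run 1. The means were 512 ± 64.4 CPM in KO islets and 443 ± 64.6 CPM in WT islets, a log2 fold change of 0.25 ± 0.07 (SE, 95% interval 0.09 to 0.40, adjusted p = 0.0289 by edgeR, exact permutation p = 0.0167). The call of Syt7 was lost when KO 1 (0.24), KO 2 (0.26), KO 3 (0.26), KO 4 (0.22) or WT 4 (0.21) was left out. Within a single run the adjusted p was 0.291 in run 1 and 0.0966 in run 3. Its exons overlap the opposite-strand gene Gm26859 over 384 bases, 5.13% of its exonic length, and the sources used here do not say whether the counting used strand.

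Syt9, a low-affinity sensor on dense-core granules, was at 31.0, 34.8, 40.9 and 30.5 CPM in KO 1 to KO 4, against 30.0, 26.2, 35.1, 35.5 and 35.8 CPM in WT 1 to WT 5. The groups overlapped almost fully. The log2 fold change was 0.05 ± 0.12 (SE, 95% interval -0.21 to 0.31, adjusted p = 0.81 by edgeR). Syt3, a high-affinity sensor, was at 3.28, 2.43, 3.99 and 2.79 CPM in KO 1 to KO 4, against 3.18, 3.24, 4.23, 2.11 and 4.90 CPM in WT 1 to WT 5. These values rest on 10 to 29 counts a library. The log2 fold change of Syt3 was -0.18 ± 0.35 (SE), with a 95% interval of -0.91 to 0.56 and an adjusted p of 0.77 by edgeR.

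**Figure D3:**
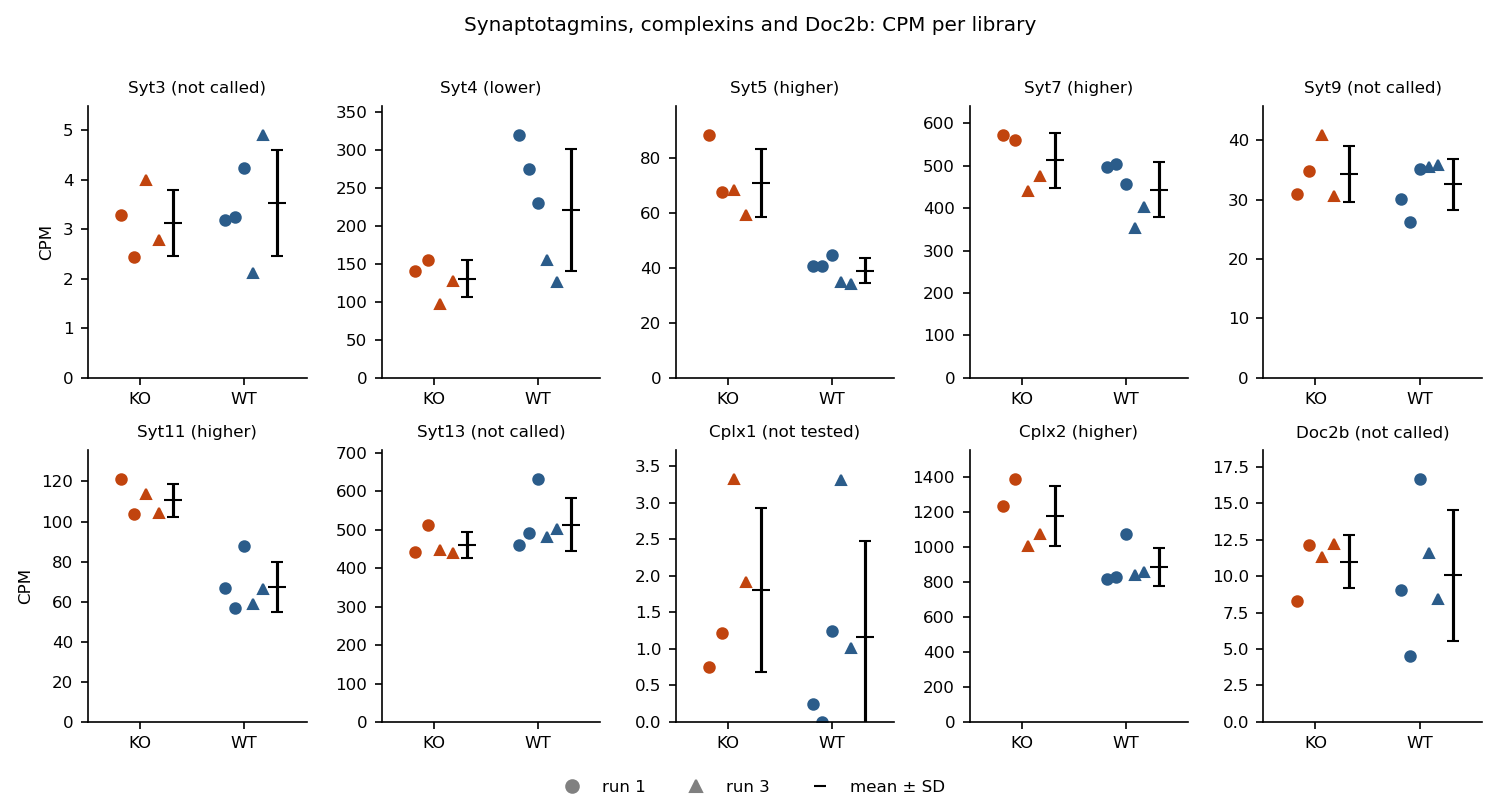
CPM of each of the 10 genes in every library, KO left of WT, with circles for run 1, triangles for run 3 and black bars for the mean ± SD of a genotype. All 4 KO libraries sit above all 5 WT libraries for Syt5 and Syt11, and the Syt4 points of KO 1 and KO 2 sit well below those of WT 1 to WT 3.

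The synaptotagmins whose C2 domains bind calcium weakly or not at all moved in both directions. Syt4, which in mouse beta cells restrains secretion at low calcium, was the gene that fell. It was at 140, 155, 97.9 and 128 CPM in KO 1 to KO 4, against 320, 275, 230, 155 and 127 CPM in WT 1 to WT 5. The 3 WT libraries of run 1 were the highest, and in run 3 the genotypes overlapped. The means were 130 ± 24.4 CPM in KO islets and 221 ± 80.8 CPM in WT islets, a log2 fold change of -0.63 ± 0.13 (SE, adjusted p = 0.00388 by edgeR, exact permutation p = 0.0333). In run 1 the log2 fold change was -0.91 with an adjusted p of 0.00748 by edgeR. In run 3 it was -0.32 and was not called (adjusted p = 0.143 by edgeR). The genotype-by-run term of Syt4 was 0.58 ± 0.22 (SE, adjusted p = 0.795 by edgeR over all genes). Syt4 has 566 bases of exon, 14.5% of its exonic length, in common with the opposite-strand gene Gm26658. Whether reads of that gene entered the Syt4 counts, and how many, is not known.

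Syt11, known from mouse neurons and macrophages for restraining vesicle traffic, was at 121, 104, 114 and 104 CPM in KO 1 to KO 4, against 66.7, 56.7, 88.0, 59.0 and 66.6 CPM in WT 1 to WT 5. The groups did not overlap. The means were 111 ± 8.25 CPM in KO islets and 67.4 ± 12.4 CPM in WT islets, a log2 fold change of 0.73 ± 0.11 (SE, 95% interval 0.49 to 0.96, adjusted p = 0.000362 by edgeR, exact permutation p = 0.0333). In run 1 the log2 fold change was 0.65 and narrowly missed the threshold (adjusted p = 0.052 by edgeR), and in run 3 it was 0.79 and was called (adjusted p = 0.000507). A share of 5.92% of the 50-base windows in its transcripts also occurs in other genes, and how reads with several matches were counted is not stated.

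Syt13 lacks the residues that bind calcium and is known from mouse pancreas development, where endocrine precursors express it. It was at 443, 512, 448 and 441 CPM in KO 1 to KO 4, against 460, 491, 632, 482 and 503 CPM in WT 1 to WT 5. KO 2 and WT 3 stood above the rest of their groups. The log2 fold change was -0.15 ± 0.09 (SE, 95% interval -0.34 to 0.05, adjusted p = 0.294 by edgeR). With the beta-cell marker level as a covariate it was 0.054.

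Of the complexins, Cplx2 was higher in KO islets and Cplx1 was near the floor of detection. Cplx2 was at 1236, 1390, 1005 and 1077 CPM in KO 1 to KO 4, against 819, 828, 1077, 843 and 860 CPM in WT 1 to WT 5. WT 3 stood apart from the other WT libraries and reached the KO values of run 3, but within each run all KO libraries lay above all WT libraries. The means were 1177 ± 172 CPM in KO islets and 885 ± 108 CPM in WT islets, a log2 fold change of 0.42 ± 0.09 (SE, adjusted p = 0.00571 by edgeR, exact permutation p = 0.0333). Neither run alone gave a call, with 0.52 in run 1 (adjusted p = 0.061 by edgeR) and 0.28 in run 3 (adjusted p = 0.0567). Cplx1, the complexin of many neurons, had 3, 5, 20 and 13 counts in KO 1 to KO 4, against 1, 0, 5, 22 and 6 counts in WT 1 to WT 5. The 4 libraries of run 3 held most of these counts in both genotypes, and more genes of the whole table had a count in run 3 than in run 1.

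Doc2b, which supports insulin secretion in mouse islets, was at 8.32, 12.2, 11.3 and 12.2 CPM in KO 1 to KO 4, against 9.04, 4.53, 16.7, 11.6 and 8.45 CPM in WT 1 to WT 5. The WT range enclosed the KO range. The log2 fold change was 0.11 ± 0.28 (SE, 95% interval -0.48 to 0.70, adjusted p = 0.824 by edgeR). It was -0.020 within run 1 and 0.22 within run 3. An opposite-strand transcript, Gm12339, covers 241 bases of its exons, 5.53% of the exonic length.

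Across the 9 tested genes, all KO libraries lay on 1 side of all WT libraries for 2 genes (Syt5 and Syt11), while this held for 11.1% of all tested genes. Within each run the KO libraries lay on the same side of the WT libraries for 4 genes (Syt5, Syt7, Syt11 and Cplx2), against 22.9% of all tested genes. In run 1 alone 1 of the 9 was called higher (Syt5) and 1 lower (Syt4), against 6.08% of genes called, and in run 3 alone 2 were called higher (Syt5 and Syt11), against 8.17%. None of the 9 was called for a genotype-by-run difference by edgeR at the adjusted threshold, where 0% of genes were called, and 1 was at unadjusted p below 0.05 (Syt4), where 5.95% of genes were. DESeq2 gave the same counts of 0 and 1 for the 9 genes, against 1 and 459 over all tested genes.

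Runs and control genotypes were compared next. Syt4, Syt5 and Syt7 were lower in run 3 than in run 1, by log2 differences of -0.71, -0.29 and -0.34 (adjusted p = 0.000771, 0.043 and 0.00253 by edgeR), while 31.4% of all tested genes were called for run. Leaving out 1 library at a time changed the count called for run among the 10 genes to between 2 and 4. The share over all genes was not computed for those fits. The f/+ and f/f WT libraries were not called different for any of the 9 by edgeR, and 0% of all genes were called. Both f/+ libraries were from run 1, where WT 2 was the only f/f control. The comparison thus rests largely on WT 2, which had the largest Rn45s part (28.5%). It cannot show that the control genotypes are alike. At unadjusted p below 0.05 the f/+ libraries were higher for 2 genes, against 3.18% of all genes. These were Syt11, by 0.36, and Doc2b, by 0.97 on the log2 scale, and both had an adjusted p of 1 by edgeR.

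As a share of the summed FPKM of all 17 synaptotagmins, Syt13 and Syt7 were the largest in KO islets, at 38.0 ± 1.89% and 21.2 ± 1.10%. In WT islets they held 42.4 ± 4.72% and 18.6 ± 1.45%. The share of Syt5 was 12.5 ± 1.77% in KO islets and 6.79 ± 0.32% in WT islets, and that of Syt11 was 7.52 ± 0.83% in KO islets and 4.55 ± 0.65% in WT islets. Syt4 held 10.5 ± 1.45% in KO islets and 17.4 ± 5.03% in WT islets (SD, n = 4 and 5 for each share). A share falls when another gene rises, so these shares were not tested.

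**Figure D4:**
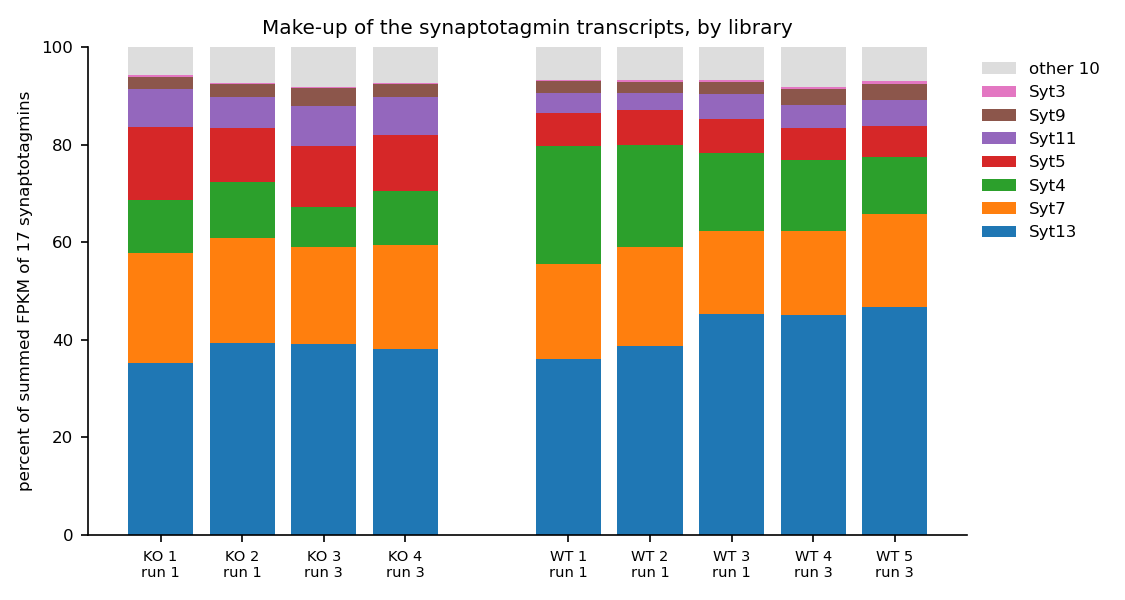
Stacked bars, 1 per library, of the percent of the summed FPKM of 17 synaptotagmins held by each gene, KO left of WT. Syt13 holds 38.0% on average in KO islets and 42.4% in WT islets, and Syt5 holds 12.5% in KO islets and 6.79% in WT islets.

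The rest of the family and of the exocytosis machinery was counted in 5 lists, to be read against the 9.56% of all tested genes called higher and the 8.96% called lower. Among the relatives (other synaptotagmins, complexins and Doc2 genes) 8 were tested, and 1 was called higher and 1 lower, with a median log2 fold change of 0.21. Syt14, a synaptotagmin without calcium binding, fell to 85.1 ± 12.2 CPM in KO islets, against 125 ± 12.2 CPM in WT islets (-0.55 ± 0.10 SE on the log2 scale, adjusted p = 0.00164 by edgeR). In run 1 alone Syt14 was at -0.57 and was not called (adjusted p = 0.055 by edgeR). Syt17 was at 5.21 ± 1.86 CPM in KO islets and 2.17 ± 0.96 CPM in WT islets (log2 fold change 1.18, adjusted p = 0.0398), a call lost on leaving out WT 1, WT 2, WT 4, WT 5, KO 2, KO 3 or KO 4, with values between 0.84 and 1.32 in those fits, and in either run alone. Syt1, the fast sensor of brain synapses, was at 12.9 ± 2.88 CPM in KO islets and 9.89 ± 0.85 CPM in WT islets and was not called (log2 fold change 0.36, adjusted p = 0.204).

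The list of C2-domain secretion proteins had 18 tested genes, of which 3 rose, 5 fell and 10 stayed uncalled, with a median of -0.0064. Esyt3, an extended synaptotagmin of membrane contact sites, was at 12.2 ± 3.04 CPM in KO islets and 1.96 ± 0.87 CPM in WT islets (log2 fold change 2.64). Its WT values rest on 8, 10, 4, 15 and 8 counts in WT 1 to WT 5. The log2 fold change of Esyt3 ranged from 1.32 to 2.99 over the 26 alternatives, and it was called in all. Cadps, the granule-priming protein CAPS1, was at 328 ± 26.8 CPM in KO islets and 232 ± 15.9 CPM in WT islets (0.48). Sytl4, the Rab27-binding granule protein granuphilin, was at 136 ± 34.2 CPM in KO islets and 259 ± 57.3 CPM in WT islets (-0.94), and Esyt1 was at 105 ± 13.4 CPM in KO islets and 162 ± 15.7 CPM in WT islets (-0.61). These 4 calls had adjusted p-values of 3.96e-05, 0.000352, 0.00126 and 0.000218 by edgeR. In run 1 alone Sytl4 was not called (-0.93, adjusted p = 0.0767 by edgeR), and with the beta-cell marker level as a covariate it was -0.45 and called. The call of Baiap3 (-0.60) was lost without KO 3 or KO 4, in run 1 alone (-0.30), with the beta-cell marker level as a covariate (-0.18), without the run term and on the FPKM scale. Cadps2 (0.82) lost its call in 12 of 26 alternatives, among them the fits without KO 1, KO 2 or WT 5, run 3 alone (0.26) and the acinar marker level as a covariate (0.57).

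Among SNAREs and their regulators 23 genes were tested, and 7 rose, 6 fell and 10 stayed uncalled, with a median of -0.046. Snap25, the plasma-membrane SNARE, was at 179 ± 16.5 CPM in KO islets and 136 ± 10.5 CPM in WT islets (0.40, adjusted p = 0.0048 by edgeR), and Stx1a, its syntaxin partner, at 24.2 ± 3.63 CPM in KO islets and 14.7 ± 3.17 CPM in WT islets (0.71, adjusted p = 0.00899). Neither run alone gave a call for Snap25 (0.46 in run 1 and 0.30 in run 3, adjusted p = 0.0628 and 0.0775 by edgeR) or for Stx1a (0.62 in run 1 and 0.77 in run 3, adjusted p = 0.0982 and 0.0701). Stx1a was also not called on the FPKM scale or with the beta-cell marker level as a covariate (0.62, adjusted p = 0.0899 by edgeR). Stx6 (-0.51) and Stx3 (-0.46) fell, and in run 1 alone both were lower but neither was called (-0.34 and -0.39). Stx3 was also not called without the run term or on the unfiltered FPKM values. Stx2 (0.68) rose, a call lost without KO 2 or WT 4, in run 1 alone (0.52), without the run term, without WT 2 and WT 5, without KO 2 and WT 2, and on the FPKM scale. Granule Rab and tethering genes had 1 of 19 tested called higher and 1 lower, with a median of -0.044. Rab3d, a Rab of secretory granules, had a log2 fold change of -0.68 and an adjusted p of 0.000352 by edgeR, and the call of Exoc3 (0.26) was lost without WT 2, WT 5, KO 1, KO 3 or KO 4 and in either run alone.

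Of 15 tested subunits of voltage-gated calcium channels, the source of the calcium that synaptotagmins sense, 4 were called higher and 0 lower, with a median of 0.071. Cacna1e, the R-type pore subunit, was at 16.4 ± 8.17 CPM in KO islets and 2.198 ± 2.39 CPM in WT islets (log2 fold change 2.82, adjusted p = 0.000104 by edgeR). It had only 3, 2 and 1 counts in WT 1 to WT 3, against 24 and 34 in WT 4 and WT 5. Its call held in all 26 alternatives, but the log2 fold change ranged from 0.79 to 4.18, so its size is uncertain. Cacna1a, the P/Q-type pore subunit, was at 118 ± 12.4 CPM in KO islets and 77.3 ± 14.0 CPM in WT islets (0.59, adjusted p = 0.00201), and Cacnb3, a beta subunit, rose by 0.39. In run 3 alone Cacna1a was at 0.30 and was not called (adjusted p = 0.151 by edgeR). Cacnb3 was called in neither run alone (0.46 in run 1 and 0.29 in run 3, adjusted p = 0.0625 and 0.163 by edgeR), nor without the run term or on log2(FPKM + 0.1). The call of Cacnb1 (0.72) was lost on leaving out WT 1, WT 2, WT 3, KO 1, KO 2 or KO 3, and it was at 0.13 in run 3 alone.

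**Figure D5:**
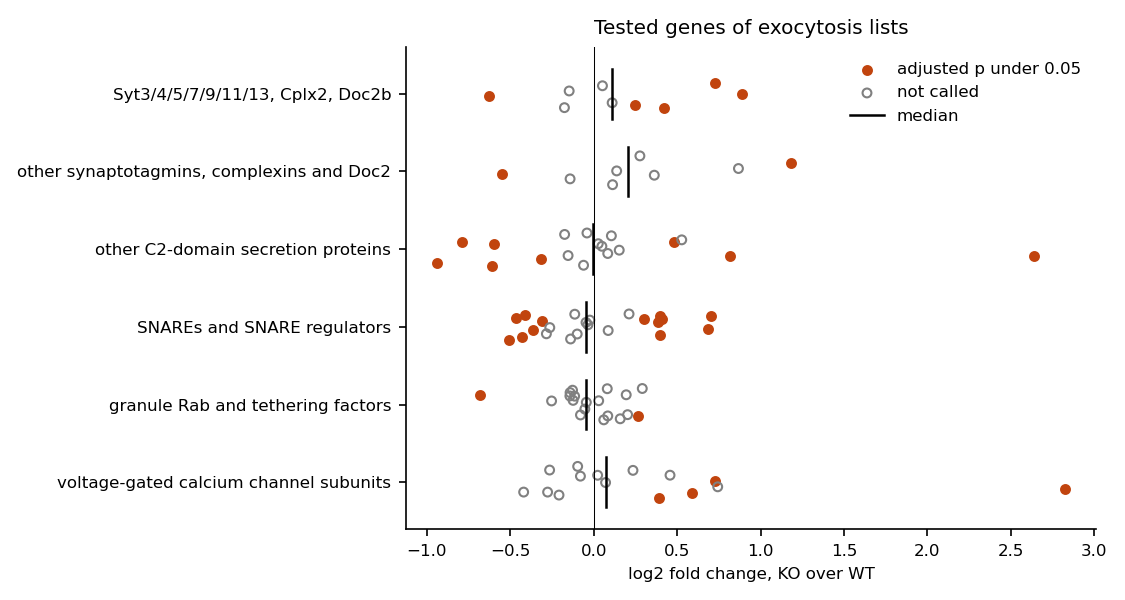
Log2 fold change (KO minus WT) of every tested gene, grouped by list, with filled points for called genes, a black bar at the median of each list and the 9 tested genes as the first group. Cacna1e (2.82) and Esyt3 (2.64) are the points farthest to the right.

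In bulk islets, fewer cells of a type and less RNA per cell cannot be told apart. Cell-type marker lists are given beside the results, against 9.56% of all tested genes called higher and 8.96% called lower. Among the 10 beta-cell markers, all tested, 5 were called lower and 0 higher, with a median log2 fold change of -0.43 (-0.43 in run 1 and -0.54 in run 3). Delta and PP cell markers summed to between 3909 and 5510 CPM in KO libraries and between 2988 and 4028 CPM in WT libraries, with 2 of 6 tested higher (Pyy and Rbp4).

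Acinar markers differed mainly between the runs. In run 1 they summed to 2017 and 405 CPM in KO 1 and KO 2, against 2341, 5766 and 4586 CPM in WT 1 to WT 3. In run 3 they summed to 78.4 and 198 CPM in KO 3 and KO 4, against 112 and 130 CPM in WT 4 and WT 5. The KO values were lower in run 1 only, where the median log2 fold change of the acinar list was -1.84, against 0.16 in run 3, and 3 of 11 tested acinar markers were called lower in the fit of both runs. Alpha-cell markers summed to between 24000 and 64380 CPM in KO libraries and between 20980 and 38730 CPM in WT libraries. Fibroblast and stellate markers summed to between 181 and 849 CPM in KO libraries and between 85.8 and 696 CPM in WT libraries, with the 4 libraries of run 3 the highest. Schwann and neuron markers summed to between 64.5 and 122 CPM in KO libraries and between 51.5 and 104 CPM in WT libraries, also highest in run 3. In each of the alpha (7 tested), fibroblast and stellate (6), Schwann and neuron (7) and macrophage (5) lists 1 gene was called, as higher, and in the duct (5) and endothelial (7) lists 0 were called.

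The beta-cell and acinar marker levels were each added to the fit as a covariate. For this, each level was the mean log2 CPM of the list, not the summed CPM given above. Of the 10 beta-cell markers in that mean 5 were called lower in KO islets, so this covariate is not independent of genotype. The part of the other lists in the results was not tested. With the beta-cell level, Syt4 (-0.78), Syt5 (0.82), Syt11 (0.83) and Cplx2 (0.65) kept their calls by edgeR, with adjusted p-values of 0.00302, 0.000761, 0.00114 and 0.000172, and Syt7 was not called (0.17, adjusted p = 0.225). With the acinar level, Syt4 (-0.57), Syt5 (0.95), Syt11 (0.79) and Cplx2 (0.38) were called, with adjusted p-values of 0.024, 0.000138, 0.00117 and 0.043 by edgeR, and Syt7 was not (0.27, adjusted p = 0.0657). Doc2b was at 0.84 with the beta-cell level (adjusted p = 0.0889 by edgeR) and 0.099 with the acinar level.

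Genes whose run-centred log2 CPM followed the called genes most closely were named by Pearson r over the 9 libraries, as a description. For Syt4 these were Arl8b (r = 0.988), Larp4b (0.984) and Fam122a (0.981). For Syt5 they were Elof1 (0.989), Etnk1 (0.986) and Fen1 (0.986). For Syt7 they were Srrm1 (0.988), Iffo1 (0.982) and Pigr (0.969). For Syt11 they were Zzef1 (0.988), Pabpn1 (0.983) and Csmd2 (0.983). For Cplx2 they were Matn2 (0.990), B4galt5 (0.988) and Fkbp1b (0.987). The values were centred within run but not within genotype, so a difference between KO and WT that genes share raises r. Depth also differed between libraries, and with 9 points many genes reach such values. Among the 9 tested genes the highest value was between Syt5 and Syt11 (0.941) and the lowest between Syt4 and Cplx2 (-0.872).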

How the data were processed

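RNA from hand-picked islets of 4 KO and 5 WT libraries was sequenced on a HiSeq2500 from a stranded low-input total RNA kit, per the labels' protocols. The authors deposited read counts per gene symbol (24420 genes) and FPKM values per gene (24347 genes). FastQC, Bowtie2 2.2.4.0, Cuffdiff 2.2.1, edgeR and mm10 are named without roles per the submitters' processing notes. The counting tool, its use of strand and its treatment of multiply matching reads are not given in the sources used here. Symbols that spreadsheet software had turned into dates (27) were left out.

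Counts were filtered by edgeR's filterByExpr on genotype, leaving 12501 genes, scaled by TMM and tested with edgeR 4.0.16 quasi-likelihood fits in R 4.3.3, with genotype and run as terms. P-values were adjusted by Benjamini-Hochberg over all tested genes and called below 0.05. CPM values use TMM-scaled library sizes. FPKM values were used for levels between genes and, as log2(FPKM + 0.1), in an alternative with limma 3.58.1. DESeq2 1.42.0 was another alternative, as were other filters and scalings, marker covariates, fewer libraries and each run alone. The smallest p that 60 within-run label permutations can give is 0.0167. Only the main edgeR fit was run on simulated counts, with effects added to genes that were not low in counts, and the outcome is not reported here. Totals of 3796043 to 6073537 counts per library limit the precision for genes with few counts, such as Syt3, Doc2b and Cplx1. Libraries of the same group, KO or WT, were compared in pairs by chi-square over genes, within and across runs. WT pairs also set f/+ against f/f. No pair agreed within sampling noise (3.72 to 64.1 per degree of freedom). The lowest value was for KO 3 and KO 4, of the same run, and the highest for WT 2 and WT 4, of different runs.

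The genes and lists were chosen with earlier results of these data known. Named genes are the 10 genes, Ogt, up to 6 called genes with the lowest p of each list, and the 3 genes with the highest r for each called gene. One gene that this rule names is not reported here. Syt1 was named after its values were seen. Coordinates of genes are GENCODE vM21 on GRCm38 and promoter stretches are RefSeq on GRCm38.p6.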

Additional observations from a re-analysis of the deposited data

Results flagged for a closer look

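In 3 of 18 groups examined (each of 9 genes in each genotype), 1 library lay far from the others of its genotype. Chance flags about 1 in 20 groups. Syt13 was at 512 CPM in KO 2, with the gap to the nearest KO library at 0.903 of the range of the group. Without KO 2 its log2 fold change was -0.20. Syt13 was at 632 CPM in WT 3, with a gap of 0.75 of the range, and without WT 3 its log2 fold change was -0.07. Cplx2 was at 1077 CPM in WT 3, with a gap of 0.841 of the range, and without WT 3 its log2 fold change was 0.48.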

How the results depend on the processing

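Of 26 alternatives, Syt5 kept its call in all (log2 fold change 0.80 to 0.96). Syt11 lost it in 1, Syt4 in 2, Cplx2 in 3 and Syt7 in 16. The 4 genes called higher became 2 without the run term, 1 in run 1 alone and 2 in run 3 alone (3 to 4 with 1 library left out), and the 1 called lower became 0 without the run term and in run 3 alone (1 in each case with 1 library left out). The count of all genes called, 2315, was 672 without the run term, 1538 with f/f controls alone, 759 in run 1 alone, 1021 in run 3 alone, 1482 and 1515 on log2(FPKM + 0.1) and log2(FPKM + 1), 1274 without the FPKM filter, 1412 with the acinar level as covariate, 1488 without WT 2 and WT 5, 1519 without KO 2 and WT 2, and 1595 to 2334 with 1 library left out. Among the 10 genes, the count called for run ranged from 2 to 4 with 1 library left out. Their counts for genotype by run and for f/+ against f/f were 0 throughout (0 to 0 with 1 library left out). Signs turned for genes that were not called. Doc2b was -0.020 in run 1, -0.19 without WT 2 and WT 5 and -0.073 without KO 2 and WT 2, and ranged from -0.032 to 0.37 with 1 library left out (-0.0071 without WT 5). In the other direction it was 0.84 with the beta level as covariate and 0.49 with f/f controls alone, uncalled in both. Syt13 was 0.054 with the beta level as covariate. Syt3 was 0.048 without WT 2 and WT 5, and ranged from -0.41 to 0.052. Syt9 was -0.0097 in run 3, -0.038 with the acinar level as covariate, -0.0062 without WT 2 and WT 5 and -0.030 without KO 2 and WT 2, and ranged from -0.022 to 0.14. The causes were not tested. No paired analysis was run, as the labels used here match KO and WT libraries by run only, and run was a term in the fit.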
